A study of Mus musculus with 14 samples.

Results

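The microRNAs of 2 related gene clusters, the miR-17 cluster (also named from miR-17 to miR-92a, with miR-17, miR-18a, miR-19a, miR-19b, miR-20a and miR-92a) and the miR-106b cluster (miR-106b, miR-93 and miR-25), were followed in small RNA libraries of mouse dorsal root ganglia (DRG), which hold the cell bodies of sensory neurons. All arms and copies of these microRNAs were taken by name from the deposited values, which gave 18 of 1123 mature miRNAs, and 15 of the 18 were abundant enough to be tested. There were 14 libraries of 2 inbred strains, with 3 from CAST/Ei mice after injury, 3 from naive CAST/Ei mice, 3 from C57BL/6 mice after injury and 5 from naive C57BL/6 mice. The injury was a 30 s crush of the left sciatic nerve in male mice aged 8 to 10 weeks. For naive mice no age or sex is given in the sources used here, and neither are the time from injury to dissection, the ganglia taken or any sequencing batch. Libraries of a group are described as biological replicates, and no pooling of animals is stated. Per the labels, the ganglia were dissociated before RNA was extracted. A bulk library cannot tell fewer cells of a type from less of a miRNA per cell.

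A microRNA guides an Argonaute protein to messenger RNAs that pair with its seed, the bases near its 5′ end, and lowers their output. The miR-17 cluster is made as 1 long transcript from which several hairpins are cut, and it is best known as an oncogenic cluster under MYC and E2F control whose targets include Cdkn1a and the cell death gene Bcl2l11 (Bim). The miR-106b cluster lies within Mcm7, a gene of the DNA replication helicase, and carries overlapping seeds. In rat embryonic cortical neurons the miR-17 cluster is known to favour axon outgrowth, and in rat DRG it has been studied for its action on potassium channel genes in neuropathic pain.

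The abundant arms of the members fall into 4 seed families, and their sequences are shown because several differ by few bases and because the comparisons below set them against near copies of the X-linked miR-106a cluster. Sequences are RefSeq mature miRNAs on GRCm38.p6, 5′ to 3′, with the seed (bases 2 to 8) in capitals. 17 of the 18 members have an entry in the RefSeq table used, and miR-19a-5p does not. The first family, with seed AAAGUGC, has 4 members and 2 X-linked copies.
miR-17-5p: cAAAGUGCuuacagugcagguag
miR-106a-5p, X-linked copy: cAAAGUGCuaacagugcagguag
miR-20a-5p: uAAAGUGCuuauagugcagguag
miR-20b-5p, X-linked copy: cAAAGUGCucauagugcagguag
miR-106b-5p: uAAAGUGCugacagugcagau
miR-93-5p: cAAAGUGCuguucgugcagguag
miR-18a-5p has the seed AAGGUGC, and its X-linked copy is miR-18b-5p.
miR-18a-5p: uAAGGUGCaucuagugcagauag
miR-18b-5p, X-linked copy: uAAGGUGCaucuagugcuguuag
The miR-19 pair has the seed GUGCAAA.
miR-19a-3p: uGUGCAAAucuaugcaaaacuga
miR-19b-3p: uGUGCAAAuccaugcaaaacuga
The miR-92 family has the seed AUUGCAC, and 6 miRNAs in the files carry it.
miR-92a-3p: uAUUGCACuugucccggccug
miR-25-3p: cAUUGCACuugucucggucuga
miR-363-3p, X-linked cluster: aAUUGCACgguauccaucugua

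Counted from the 5′ end, miR-106a-5p differs from miR-17-5p by U10A, miR-20b-5p differs from miR-20a-5p by U1C and U10C, and miR-18b-5p differs from miR-18a-5p by A18U and A20U, where the member's base comes first. miR-19b-3p differs from miR-19a-3p by U11C. miR-25-3p differs from miR-92a-3p by U1C, C14U and C18U and is 1 base longer. Reads of such near copies could be split between them by the counting, which is not described in the sources used here, so values of these pairs carry that uncertainty.

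In GRCm38.p6 the 6 hairpins of the miR-17 cluster span 836 bases of the plus strand at chr14:115043671-115044506, all inside an exon of the long non-coding RNA Mir17hg in the GENCODE annotation. Within it miR-17-5p lies at chr14:115043684-115043706, miR-18a-5p at chr14:115043867-115043889 and miR-92a-3p at chr14:115044476-115044496. The 3 hairpins of the miR-106b cluster span 498 bases of the minus strand at chr5:138165321-138165818, within Mcm7. Mir106b is intronic in 2 of 2 Mcm7 transcripts that contain it, and Mir93 and Mir25 are intronic in 2 of 3 and exonic in 1. The X-linked cluster spans 875 bases of the minus strand at chrX:52741693-52742567 and holds second copies of the hairpins of miR-19b and miR-92a. miR-19b-3p and miR-92a-3p are therefore sums over chromosomes 14 and X, and their source cannot be told apart. The deposited files name no build.

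The libraries held 4007706 to 15642360 reads, with 949 to 1084 miRNAs detected in each. Values are read counts scaled by the authors to adjusted library sizes (CPM), and 3 reads, taken as the floor, were worth 0.202 to 0.760 CPM. C57BL/6 naive libraries 4 and 5 stood apart: their rank correlation with any other library reached at most 0.938, and their 10 most abundant miRNAs took 56.6% and 50.1% of reads, against 37.7% to 45.9% elsewhere. Differences that rest on the C57BL/6 naive group are given with and without them. The marker miRNAs of 6 cell types were all tested and none was at 0 in any library, and the sum over 6 neuronal miRNAs (miR-124-3p, miR-138-5p, miR-9-5p and the miR-183 cluster) stood at 101820 to 165643 CPM. The neuronal sum was 101820 to 110405 CPM in CAST/Ei injured and 129068 to 144524 CPM in CAST/Ei naive libraries. It was 106486 to 110930 CPM in C57BL/6 injured and 132291 to 165643 CPM in C57BL/6 naive libraries, so injured and naive did not overlap in either strain.

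miR-19b-3p, the arm that dominates the cluster's miR-19 pair, was the most abundant member, at a mean of 7203 CPM over the 14 libraries, and it ranked 37 of 1123. It was above every other member in 14 of 14 libraries. The 4 miRNAs of the miR-17 seed came next, with miR-106b-5p at 1646, miR-20a-5p at 1505, miR-93-5p at 1430 and miR-17-5p at 1105 CPM. Their order was not stable, since miR-106b-5p exceeded miR-20a-5p in only 4 of 14 libraries and miR-20a-5p exceeded miR-93-5p in 8 of 14, while miR-93-5p exceeded miR-17-5p in 14 of 14. miR-19a-3p at 777 CPM and miR-18a-5p at 735 CPM changed places between libraries, with miR-19a-3p higher in 5 of 14. miR-92a-3p followed at 352 CPM and miR-25-3p, of the same seed, at 129 CPM, with miR-92a-3p higher in 14 of 14. miR-19a-3p stood at 0.0879 to 0.143 of miR-19b-3p, which can also come from the X-linked hairpin.

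The other arms were far lower. miR-17-3p, whose seed CUGCAGU it shares with miR-20b-3p and miR-106a-3p, averaged 114 CPM and was close to miR-25-3p, which exceeded it in 9 of 14 libraries. miR-106b-3p averaged 44.2, miR-93-3p 36.6, miR-20a-3p 26.2, miR-19b-1-5p 13.3 and miR-92a-1-5p 4.44 CPM. miR-19a-5p (1.05 CPM), miR-19b-2-5p (0.733 CPM) and miR-25-5p (0.608 CPM) never reached 5 CPM and were not tested. miR-17-5p exceeded miR-17-3p by a median of 9.66 times over the 14 libraries, and miR-93-5p exceeded miR-93-3p by a median of 48.6 times. miR-19b-2-5p comes from the X-linked hairpin alone and miR-19b-1-5p from the chromosome 14 hairpin alone, so among these minor arms the chromosome 14 copy gave more reads. All 18 members together took 1.65% to 1.69% of the scaled total in CAST/Ei injured, 1.23% to 1.43% in CAST/Ei naive, 1.71% to 1.91% in C57BL/6 injured and 0.783% to 1.79% in C57BL/6 naive libraries. In C57BL/6 naive libraries 1 to 3 alone their share was 1.33% to 1.58%.

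**Figure D1:**
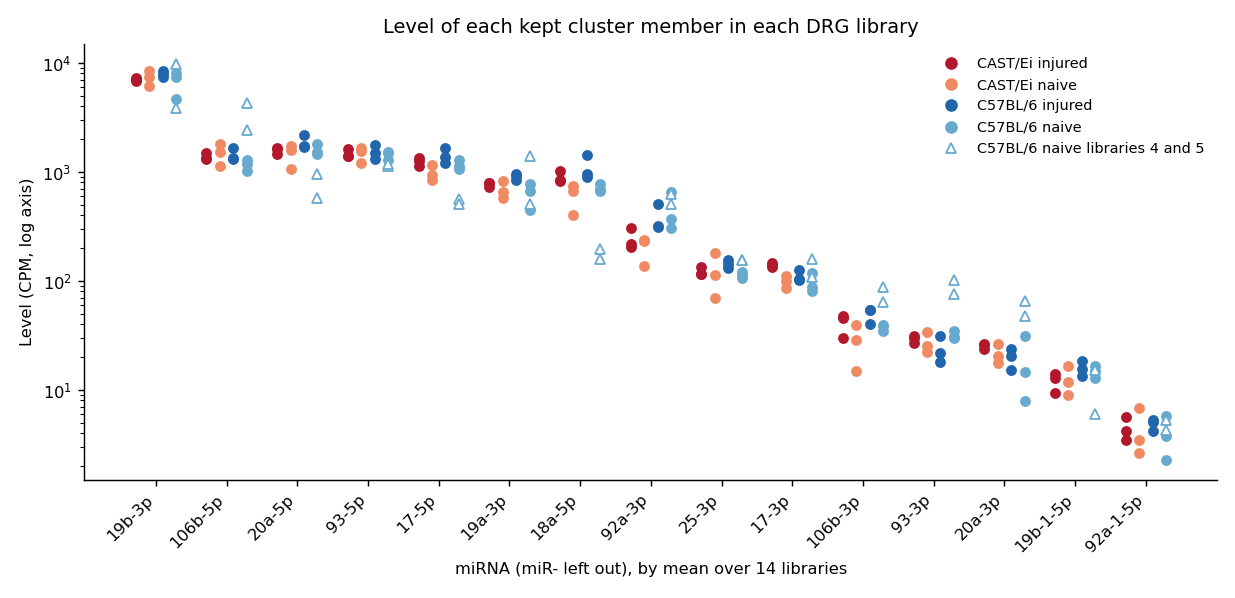
Level of each member in every library, on a log scale of CPM, with members ordered by their mean over the 14 libraries and the 4 groups side by side. Each point is a library and open triangles are C57BL/6 naive libraries 4 and 5, which lie outside the other libraries for miR-18a-5p, miR-106b-5p and several others, while miR-19b-3p stands above all other members.

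Sums by seed family were taken over the members alone, without the X-linked copies. The miR-17 seed summed to 5674 ± 122 CPM in CAST/Ei injured and 5410.2 ± 998 CPM in CAST/Ei naive libraries (SD, n = 3 each). In C57BL/6 it summed to 6255 ± 875 CPM after injury (n = 3) and 5517 ± 877 CPM in naive libraries (n = 5). The miR-19 pair summed to 7841 ± 188 and 8007 ± 1276 CPM in CAST/Ei injured and naive libraries and to 8880.0 ± 550.2 and 7504 ± 2801 CPM in C57BL/6 injured and naive libraries. For both of these abundant families the injured and naive means of a strain differed by less than the larger of their SDs. With C57BL/6 naive libraries 1 to 3 alone that failed for the miR-17 seed (5339 ± 476 CPM) and held for the miR-19 pair (7305 ± 1975 CPM). Shares of the scaled total read differently. In CAST/Ei the miR-17 seed took 0.628% to 0.638% in injured and 0.439% to 0.527% in naive libraries. The miR-19 pair took 0.856% to 0.883% and 0.687% to 0.805%, neither with overlap. In C57BL/6 these shares overlapped with all 5 naive libraries. The miR-17 seed took 0.602% to 0.731% in injured libraries and 0.482% to 0.621% in naive libraries 1 to 3, which still overlap. The miR-19 pair took 0.899% to 0.954% in injured libraries and 0.538% to 0.865% in naive libraries 1 to 3, with no overlap. The miR-92 seed members (miR-92a-3p and miR-25-3p) summed to 365 ± 68.1 and 323 ± 105.7 CPM in CAST/Ei injured and naive libraries, against 525 ± 124.1 and 619 ± 160.4 CPM in C57BL/6 injured and naive libraries.

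Crush of the sciatic nerve moved no member past the threshold in either strain (limma, adjusted p under 0.05 over the 638 miRNAs tested). The member nearest to it was miR-18a-5p, which was higher after injury in both strains with no overlap between injured and naive libraries. miR-18a-5p stood at 1014, 849.5 and 826 CPM in CAST/Ei injured libraries, against 742, 399 and 666 CPM in CAST/Ei naive libraries. It stood at 1442, 906 and 960.3 CPM in C57BL/6 injured libraries, against 694, 776, 661, 196 and 159 CPM in C57BL/6 naive libraries 1 to 5. The lowest injured library was thus above the highest naive library of its own strain, and naive libraries 4 and 5 were the lowest of all. The difference, injured minus naive, was 0.62 ± 0.53 (log2, SE) in CAST/Ei with adjusted p = 0.838 and 1.40 ± 0.48 in C57BL/6 with adjusted p = 0.110. Without C57BL/6 naive libraries 4 and 5 the C57BL/6 difference was 0.61, close to the CAST/Ei value, with adjusted p = 0.207.

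Averaged over both strains, miR-18a-5p differed by 1.01 ± 0.36 on the log2 scale, with adjusted p = 0.157. The call depended on the 2 naive libraries that stand apart: without them the averaged difference was smaller, 0.61, and passed the threshold with adjusted p = 0.0435, in a fit that called 8.62% of all tested miRNAs. In the 29 alternative settings its averaged difference stayed between 0.61 and 1.22 and passed in 4. The neuronal sum, given above, was lower in every injured library than in every naive library of its strain. miR-138-5p carried most of it, at 59722 to 113664 CPM over the 14 libraries, and alone of the 6 lay lower after injury without overlap in both strains. Its difference was -0.39 in CAST/Ei and -0.58 in C57BL/6 (-0.44 without naive libraries 4 and 5). Lower without overlap were 16.5% of all tested miRNAs in CAST/Ei and 40 of all 638 in C57BL/6. In C57BL/6, unlike CAST/Ei, miR-9-5p (0.10) and miR-96-5p (0.50) had differences above 0. miR-124-3p had an injury difference of 0.24 in CAST/Ei and 0.18 in C57BL/6 (-0.02 without naive libraries 4 and 5). None of the 6 passed the threshold in either strain. The sum of myelinating glia (3 miRNAs) was 30715 to 32122 CPM in CAST/Ei injured and 37054 to 42836 CPM in CAST/Ei naive libraries, but 36604 to 45393 CPM in C57BL/6 injured and 8042 to 35823 CPM in C57BL/6 naive libraries, so it lay lower after injury in CAST/Ei and higher in C57BL/6 without overlap. The endothelial sum (2 miRNAs) was 17967 to 21824 CPM in CAST/Ei injured and 18746 to 27549 CPM in CAST/Ei naive libraries, which overlap. In C57BL/6 it was 18408 to 20895 CPM after injury and 11212 to 16081 CPM in naive libraries, with no overlap. Of its arms, miR-126a-3p was higher there without overlap (0.54, limma adjusted p = 0.163) and miR-126a-5p overlapped (0.22). Without naive libraries 4 and 5 these were 0.38 and 0.09. The leukocyte sum (8 miRNAs, all tested, none at 0) was 5732 to 6899 CPM in CAST/Ei injured and 3812 to 6244 CPM in CAST/Ei naive libraries. In C57BL/6 the leukocyte sum was 6365 to 7990.1 CPM after injury and 4329 to 7781 CPM in naive libraries. miR-511-3p was higher after injury without overlap in both strains, by 0.98 in CAST/Ei (limma, adjusted p = 0.219) and 1.47 in C57BL/6 (adjusted p = 0.0054). miR-142-5p was too, by 0.76 and 0.57, and did not pass with all libraries in the fit. Higher without overlap were 10.2% of all tested miRNAs in CAST/Ei and 8.62% in C57BL/6. miR-150-5p had a C57BL/6 difference of -2.29 (adjusted p = 0.0854). Without naive libraries 4 and 5 these C57BL/6 differences were 1.18, 0.69 and -1.34. In that limma fit miR-511-3p passed in CAST/Ei (adjusted p = 0.0181) and C57BL/6 (0.0044), and miR-142-5p passed too (0.0389 and 0.0452). That fit called 2.66% of all tested miRNAs in CAST/Ei and 4.55% in C57BL/6. With all libraries, differences in CAST/Ei and C57BL/6 were 0.83 and 1.63 for miR-142-3p, 0.94 and 0.25 for miR-223-5p and 0.39 and 0.34 for miR-223-3p. They were 0.67 and -0.61 for miR-155-5p and 0.12 and -0.29 for miR-146a-5p. In the same order, the C57BL/6 values were 0.97, 0.20, 0.35, 0.30 and 0.35 without naive libraries 4 and 5. None of these passed in either fit. The part of these cell types in the miR-18a-5p values was not tested.

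**Figure D2:**
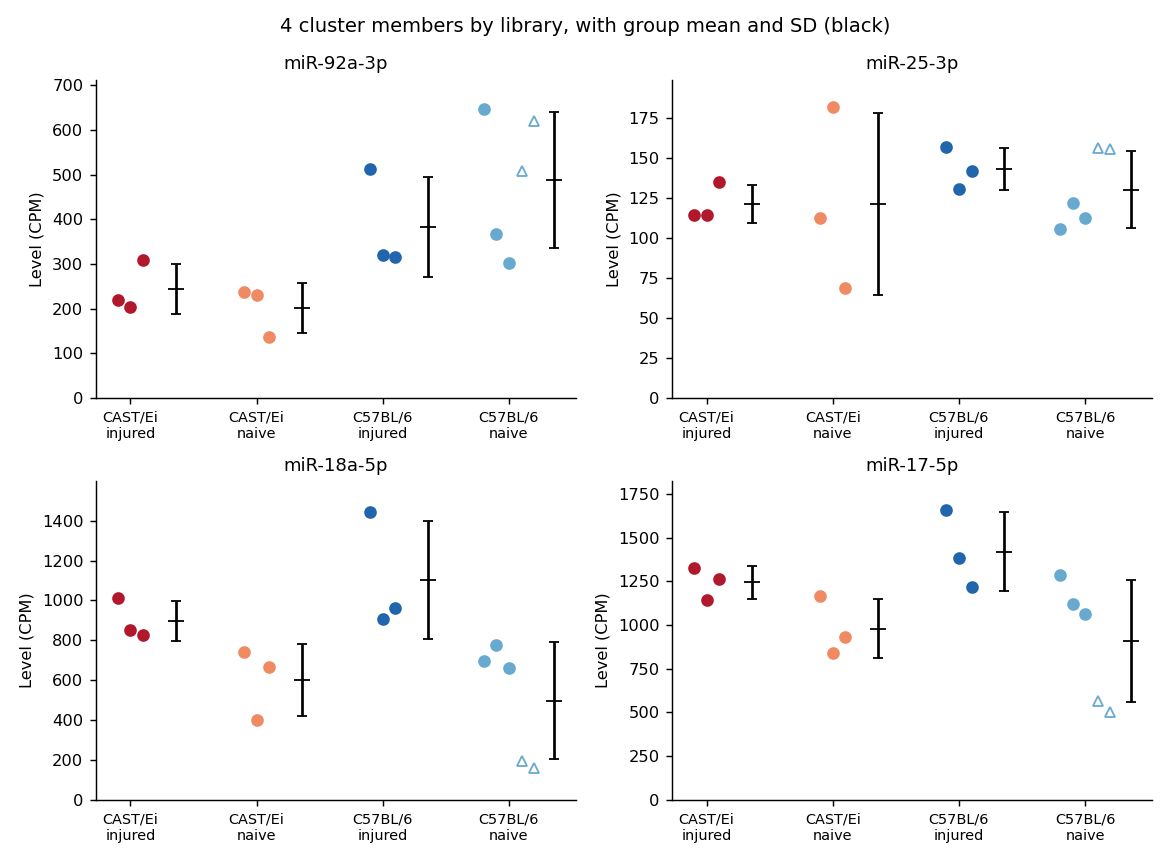
CPM of miR-92a-3p, miR-25-3p, miR-18a-5p and miR-17-5p in every library (points) with group means and SD in black, open triangles for C57BL/6 naive libraries 4 and 5, the CAST/Ei groups left of the C57BL/6 groups and injured left of naive, on linear axes from 0. miR-92a-3p is lower in CAST/Ei naive than in C57BL/6 naive libraries, and miR-18a-5p is higher in injured than in naive libraries of both strains.

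miR-17-5p, the first member of the cluster, was 1328, 1141 and 1266 CPM in CAST/Ei injured and 1167, 840.4 and 929 CPM in CAST/Ei naive libraries. It was 1661, 1381 and 1217 CPM in C57BL/6 injured and 1285, 1123, 1062, 566 and 504 CPM in C57BL/6 naive libraries. Injured and naive libraries overlapped in both strains, and naive libraries 4 and 5 were again the lowest. The C57BL/6 difference of 0.73 ± 0.30 had adjusted p = 0.163, and it was 0.29 without those 2 libraries. miR-17-3p, cut from the same hairpin, was 135, 139.7 and 145 CPM in CAST/Ei injured and 86.4, 100.2 and 109.9 CPM in CAST/Ei naive libraries, with no overlap, a difference of 0.50 ± 0.27 and adjusted p = 0.676. In C57BL/6 miR-17-3p was 102, 103 and 125 CPM after injury and 80.6, 117, 87.7, 109 and 158 CPM in naive libraries, which overlap.

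miR-93-3p, the minor arm of miR-93, had the most negative difference of the members in C57BL/6. It was 17.8, 31.1 and 21.8 CPM in C57BL/6 injured libraries and 30.1, 34.6, 30.7, 75.6 and 101 CPM in C57BL/6 naive libraries, a difference of -1.02 ± 0.39 with adjusted p = 0.134 in limma. DESeq2 on the recovered reads gave -1.29 with adjusted p = 0.0231, and limma without naive libraries 4 and 5 gave -0.45 with adjusted p = 0.344, so the size rests on those libraries. In CAST/Ei miR-106b-3p was among the 3 members with the lowest p, at 47.2, 30.2 and 45.7 CPM in injured and 39.2, 28.5 and 14.96 CPM in naive libraries, a difference of 0.63 ± 0.40 with adjusted p = 0.774.

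Counted over the 15 tested members, limma called 0 after injury in C57BL/6, where 3.13% of all 638 tested miRNAs were called, and 0 in CAST/Ei, where 1.1% were. edgeR also called 0 in both, beside 5.02% of all in C57BL/6 and 1.25% in CAST/Ei. DESeq2 called 1 in C57BL/6, beside 12.4% of all miRNAs with an adjusted p, and 0 in CAST/Ei, beside 2.57%. At an unadjusted p under 0.05 there were 3 of 15 members in C57BL/6 against 23.7% of all tested miRNAs, and 0 in CAST/Ei against 6.43%. Members whose injured libraries all lay above the naive libraries were 1 of 15 in C57BL/6, miR-18a-5p, beside 8.62% of all tested miRNAs. In CAST/Ei they were 2 of 15, miR-17-3p and miR-18a-5p, beside 10.2% of all. Without naive libraries 4 and 5 limma called 0 members in either strain, beside 2.66% of all tested miRNAs in CAST/Ei and 4.55% in C57BL/6. In that fit 2 members in each strain had an unadjusted p under 0.05, beside 17.7% of all in CAST/Ei and 18.3% in C57BL/6. The median difference of the members was 0.18 in C57BL/6 and 0.13 in CAST/Ei, beside 0.12 and -0.09 over all tested miRNAs. For the average over strains limma, edgeR and DESeq2 called 0 members (4.23%, 4.08% and 7.55% of all), with 2 of 15, miR-18a-5p and miR-17-5p, at an unadjusted p under 0.05 (15.8% of all). miR-17-5p had an averaged difference of 0.54 ± 0.23 with adjusted p = 0.243, or 0.32 without those libraries. miR-20a-5p had 0.40 ± 0.24 with adjusted p = 0.433, or 0.18 without them.

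Between strains, miR-92a-3p was lower in CAST/Ei naive DRG and was the only member called in any of the 6 limma contrasts. miR-92a-3p, best known for its effects on endothelial cells and angiogenesis, stood at 237, 231 and 137 CPM in CAST/Ei naive libraries, against 647, 366, 303, 507 and 619.8 CPM in C57BL/6 naive libraries. Every CAST/Ei naive value lay below every C57BL/6 naive value. The difference, CAST/Ei minus C57BL/6, was -1.26 ± 0.31 with adjusted p = 0.0178 (limma), a level 0.419 times that of C57BL/6 on the scale of log2(CPM + 1). Without C57BL/6 naive libraries 4 and 5 it was -1.08 with adjusted p = 0.0356, in a fit that called 14.3% of all tested miRNAs. It rested more on CAST/Ei naive library 3, the lowest at 137 CPM, without which it no longer passed, with adjusted p = 0.110. Nor did it pass with only the 2 compared groups in the fit (adjusted p = 0.103) or with libraries weighted by their quality (adjusted p = 0.0563).

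After injury miR-92a-3p kept the same order, with 219, 204 and 308 CPM in CAST/Ei injured libraries and 512, 320.2 and 315 CPM in C57BL/6 injured libraries. The groups did not overlap, but the highest CAST/Ei value, 308 CPM, lay just under the lowest C57BL/6 value, 315 CPM. The difference of -0.63 ± 0.35 had adjusted p = 0.666. The change of the strain difference with injury was 0.62 ± 0.46 with adjusted p = 0.592 (0.45 without naive libraries 4 and 5), so a different strain effect in injured DRG was not shown. miR-92a-3p relative to miR-17-5p was 0.148 to 0.274 in CAST/Ei naive and 0.285 to 1.23 in C57BL/6 naive libraries, which do not overlap, and miR-92a-3p can also come from the X-linked hairpin. The upper C57BL/6 values, 0.896 and 1.23, were those of naive libraries 4 and 5, where miR-17-5p was lowest. In naive libraries 1 to 3 the ratio was 0.285 to 0.503, so the gap to CAST/Ei was narrow. No share of all miRNAs was computed for this ratio.

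miR-25-3p, which has the same seed but is cut from the Mcm7 cluster, was 112, 182 and 68.9 CPM in CAST/Ei naive and 105, 122, 112, 156 and 156 CPM in C57BL/6 naive libraries. The groups overlapped, and the difference of -0.19 ± 0.28 had a 95% interval of -0.80 to 0.41. Beside these values, the summed level of the endothelial miR-126a arms (2 miRNAs, both tested, neither at 0) was 18746 to 27549 CPM in CAST/Ei naive and 11212 to 16081 CPM in C57BL/6 naive libraries, with no overlap and in the opposite direction to miR-92a-3p. The erythrocyte sum (miR-451a and the arms of miR-144 and miR-486, 5 miRNAs, all tested, none at 0) was 9682 to 13468 CPM in CAST/Ei naive and 7369 to 26474 CPM in C57BL/6 naive libraries, which overlap. The part of these endothelial and erythrocyte miRNAs in the miR-92a-3p difference was not tested.

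A pair of minor arms of the Mcm7 cluster came next in naive DRG and did not pass in limma. miR-106b-3p was 39.2, 28.5 and 14.96 CPM in CAST/Ei naive and 39.6, 38.9, 34.5, 88.6 and 63.8 CPM in C57BL/6 naive libraries, a difference of -0.93 ± 0.36 with adjusted p = 0.0926. miR-93-3p was 25.1, 22.2 and 34.2 CPM in CAST/Ei naive and 30.1, 34.6, 30.7, 75.6 and 101 CPM in C57BL/6 naive libraries, a difference of -0.81 ± 0.39 with adjusted p = 0.162. DESeq2 called both, with adjusted p = 0.0279 and 0.0361, and without naive libraries 4 and 5 limma gave -0.53 and -0.24. Their major arms, miR-106b-5p and miR-93-5p, were among the members whose strain difference in naive DRG did not pass in any tool.

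Over the 15 members limma called 1 in naive DRG, beside 11.1% of all tested miRNAs, edgeR called 1, beside 12.1%, and DESeq2 called 3, beside 18.6%. In limma 2 had an unadjusted p under 0.05, beside 31.8% of all. In injured DRG limma, edgeR and DESeq2 called 0 members, beside 3.29%, 3.29% and 3.93% of all, and in limma 0 had an unadjusted p under 0.05, beside 8.78% of all. In naive DRG 1 member lay lower in CAST/Ei without overlap, beside 7.05% of all tested miRNAs. In injured DRG miR-92a-3p, miR-20a-5p, miR-19a-3p and miR-19b-3p, 4 of 15, were lower in CAST/Ei without overlap, beside 20.5% of all, and 2 of 15, miR-17-3p and miR-20a-3p, were higher, beside 15.4% of all. After miR-92a-3p, the lowest p in injured DRG belonged to miR-17-3p, with a difference of 0.35 ± 0.27 (adjusted p = 0.891), and miR-19b-1-5p, with -0.37 ± 0.37 (adjusted p = 0.948). The median strain difference of the members was -0.04 in naive and -0.18 in injured DRG, beside 0.12 and -0.06 over all tested miRNAs.

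**Figure D3:**
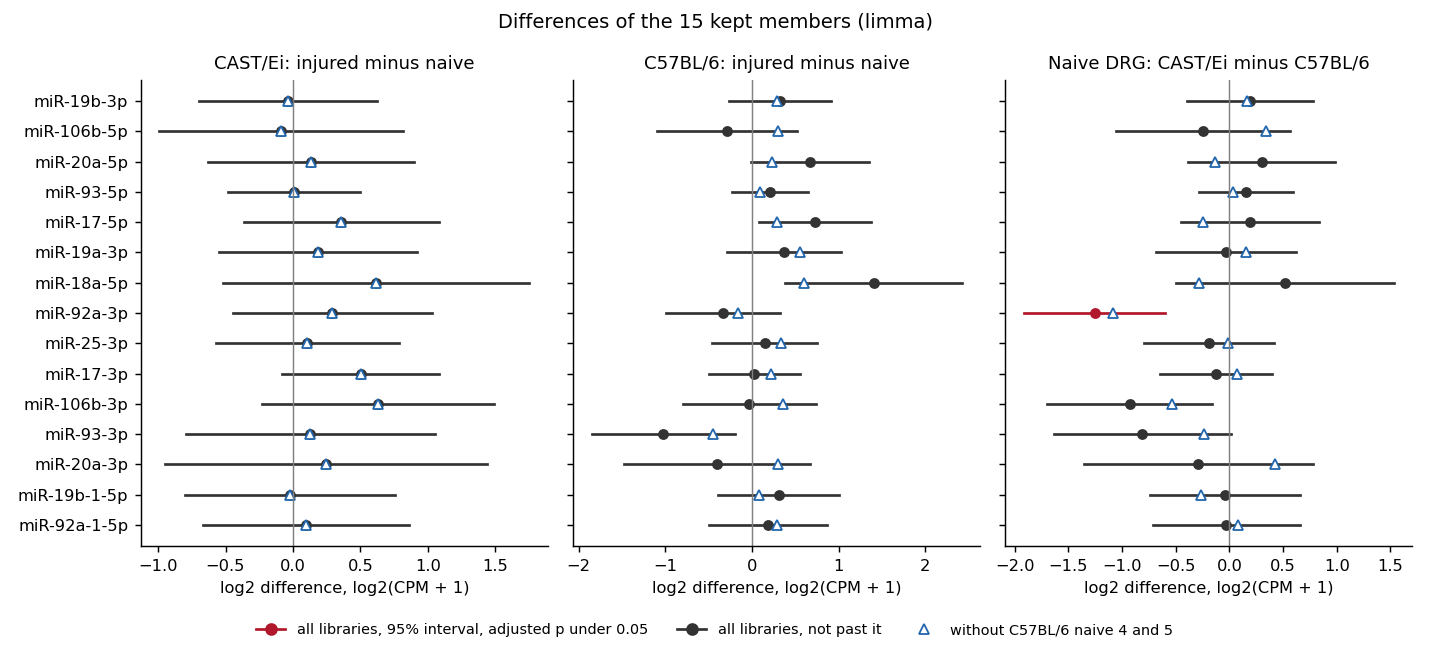
Log2 differences of the 15 tested members with 95% intervals (limma, log2(CPM + 1)) for injury in CAST/Ei, injury in C57BL/6 and strain in naive DRG, with triangles for the fit without C57BL/6 naive libraries 4 and 5. miR-92a-3p, in red, is the member past the threshold, and the triangles of miR-18a-5p, miR-17-5p and miR-93-3p lie nearer to 0 than the estimates from all libraries in C57BL/6.

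The 2 strains were not shown to differ in their response to injury. limma, edgeR and DESeq2 called 0 members for the difference between the injury effects, beside 0%, 0.157% and 1.42% of all, and in limma 0 had an unadjusted p under 0.05, beside 8.15% of all. The lowest p belonged to miR-93-3p, whose CAST/Ei effect exceeded its C57BL/6 effect by 1.15 ± 0.58 with adjusted p = 0.529, and by 0.58 without naive libraries 4 and 5. miR-92a-3p, given above, and miR-17-3p with 0.47 ± 0.37 and adjusted p = 0.593, or 0.28 without those libraries, followed.

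The X-linked miR-106a cluster carries near copies of the miR-17 cluster members, and 8 of its arms were in the files, of which 5 were tested. Among these arms miR-20b-5p averaged 275 CPM, miR-106a-5p 103 CPM, miR-20b-3p 22.4 CPM and miR-363-3p 18.5 CPM. In CAST/Ei 4 of the 5 copies had a difference below 0 after injury, with a median of -0.55, as had 364 of all 638 tested miRNAs, and 12 of the 15 members had one above 0, with the authors' scaling. In C57BL/6 4 of the 5 copies had a difference above 0, with a median of 0.18, or -0.17 without naive libraries 4 and 5. miR-20b-5p was 239.9, 203 and 211 CPM in CAST/Ei injured and 400.3, 248 and 410.4 CPM in CAST/Ei naive libraries, a difference of -0.66 ± 0.32 with adjusted p = 0.667. miR-106a-5p was 96.9, 72.4 and 84.4 CPM in CAST/Ei injured and 138, 102 and 132 CPM in CAST/Ei naive libraries, a difference of -0.55 ± 0.34 with adjusted p = 0.746. In both, injured libraries lay below the naive ones without overlap, and so they did for miR-363-3p (-0.55, adjusted p = 0.669), which makes 3 of 5 copies beside 16.5% of all tested miRNAs, but none passed. In C57BL/6 miR-106a-5p was 124.3, 109 and 89.6 CPM after injury and 136, 122, 118, 61.3 and 59.8 CPM in naive libraries, with overlap. miR-363-3p, of the miR-92 seed, was 23.0, 33.7 and 25.6 CPM in CAST/Ei naive and 14.1, 14.1, 17.2, 11.8 and 13.9 CPM in C57BL/6 naive libraries. It was called between naive strains, higher in CAST/Ei by 0.89 ± 0.25 with adjusted p = 0.0319, or 0.80 and adjusted p = 0.0416 without naive libraries 4 and 5, which is the opposite direction to miR-92a-3p.

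Each copy was also set against its near-identical member within the same library, a quantity that does not depend on the scaling of the library. This comparison was added after the levels had been seen. miR-106a-5p stood at 0.0729, 0.0635 and 0.0667 of miR-17-5p in CAST/Ei injured libraries, against 0.119, 0.122 and 0.142 in CAST/Ei naive libraries. It stood at 0.0749, 0.0788 and 0.0736 of miR-17-5p in C57BL/6 injured libraries, against 0.106, 0.109, 0.111, 0.108 and 0.119 in C57BL/6 naive libraries 1 to 5. The ratio was lower in all 6 injured libraries than in all 8 naive libraries, and naive libraries 4 and 5, which stand apart in their levels, did not stand apart here. Averaged over strains the ratio was 0.604 times as high after injury, a log2 difference of -0.73, and without naive libraries 4 and 5 it was -0.71. The ratios are given as a description, with no test, since they were chosen from these values.

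miR-20b-5p relative to miR-20a-5p was 0.165, 0.121 and 0.130 in CAST/Ei injured and 0.250, 0.232 and 0.236 in CAST/Ei naive libraries. In C57BL/6 this ratio was 0.161, 0.143 and 0.129 after injury and 0.190, 0.217, 0.166, 0.456 and 0.157 in naive libraries, where the groups overlap. Its averaged log2 difference was -0.70, and -0.60 without naive libraries 4 and 5. miR-18b-5p relative to miR-18a-5p had an averaged log2 difference of -0.52, and miR-18b-5p itself lay at only 1.69 to 11.9 CPM. As background, 55 of the 637 tested miRNAs other than miR-17-5p (8.63%), miR-106a-5p among them, had a ratio to miR-17-5p that was lower in injured than in naive libraries without overlap in both strains. For miR-20a-5p as the divisor this was 18 of 637 (2.83%), and for miR-18a-5p 119 of 637 (18.7%).

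**Figure D4:**
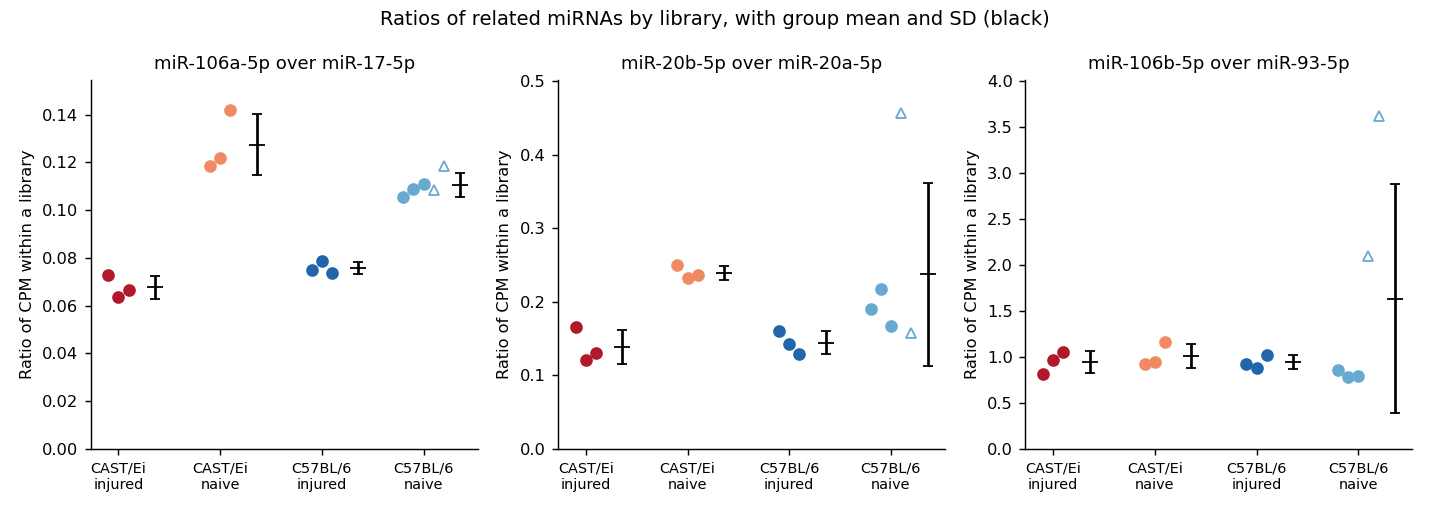
Within-library ratios of miR-106a-5p to miR-17-5p, miR-20b-5p to miR-20a-5p and miR-106b-5p to miR-93-5p in the 4 groups, with each library a point, group mean and SD in black, open triangles for C57BL/6 naive libraries 4 and 5, and linear axes from 0. The first ratio is lower in every injured library than in every naive library, and the last is raised in C57BL/6 naive libraries 4 and 5.

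C57BL/6 naive libraries 4 and 5 differed from C57BL/6 naive libraries 1 to 3 in a pattern that split the clusters. miR-18a-5p was lower there by a log2 difference of -1.85 in library 4 and -2.15 in library 5, miR-17-5p by -1.02 and -1.19, and miR-20a-5p by -1.45 and -0.74. miR-106b-5p was higher, by 1.05 and 1.88, and so were the minor arms miR-20a-3p (1.54 and 2.005), miR-93-3p (1.23 and 1.65) and miR-106b-3p (1.22 and 0.75). The median over the 15 members was 0.43, with 9 above 0, beside -0.06 over all 638 tested miRNAs. miR-106b-5p and miR-93-5p, which lie within 498 bases on 1 strand, had a ratio of 2.10 in library 4 and 3.63 in library 5. In the other 12 libraries that ratio was 0.781 to 1.16. The sum of 3 miRNAs of myelinating glia (miR-338 arms and miR-219a-5p) was 8627 CPM in library 4 and 8042 CPM in library 5, against 18219 to 45393 CPM in the other 12. The low sum was that of miR-338-3p, at 6735 and 7116 CPM against 15061 to 42996 CPM in the other 12, while miR-338-5p in library 4 (1891 CPM) and miR-219a-5p in library 5 (5.08 CPM) lay within the range of the others. The neuronal sum was 162389 CPM in library 4 and 165643 CPM in library 5, against at most 144524 CPM in the other 12. Of its miRNAs, miR-138-5p (104665 and 113664 CPM) and miR-183-5p (16257 and 17884 CPM) lay above all other libraries. The other neuronal miRNAs lay within their range. The leukocyte sum (7779 and 7781 CPM) lay within the range of the others. Of its miRNAs, miR-150-5p was higher, at 2713 and 2382 CPM against at most 1658 CPM elsewhere. miR-155-5p was higher too, at 233.3 and 178.1 CPM against at most 99.5 CPM. miR-142-3p was lower, at 225.8 and 399.9 CPM against at least 512.5 CPM. The other leukocyte miRNAs lay within the range of the other libraries in library 4, library 5 or both. The erythrocyte sum was lower, at 7652 and 7369 CPM against at least 7680 CPM. Within it miR-486-5p was higher, at 263.7 and 205.0 CPM against at most 73.9 CPM, and so was miR-486-3p, at 582.6 and 465.8 CPM against at most 171.9 CPM. miR-144-3p was lower, at 224.7 and 206.7 CPM against at least 520.7 CPM. miR-451a lay slightly lower, at 6315 and 6350 CPM against at least 6421 CPM. miR-144-5p was lower in library 5 only. The endothelial sum was lower, at 12879 and 11212 CPM against at least 15254 CPM. Of its arms, miR-126a-3p in library 4 (10830 CPM) and miR-126a-5p in library 5 (3511 CPM) lay within the range of the others. The part of these cell types in the pattern was not tested, and no label gives these 2 libraries a batch of their own.

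**Figure D5:**
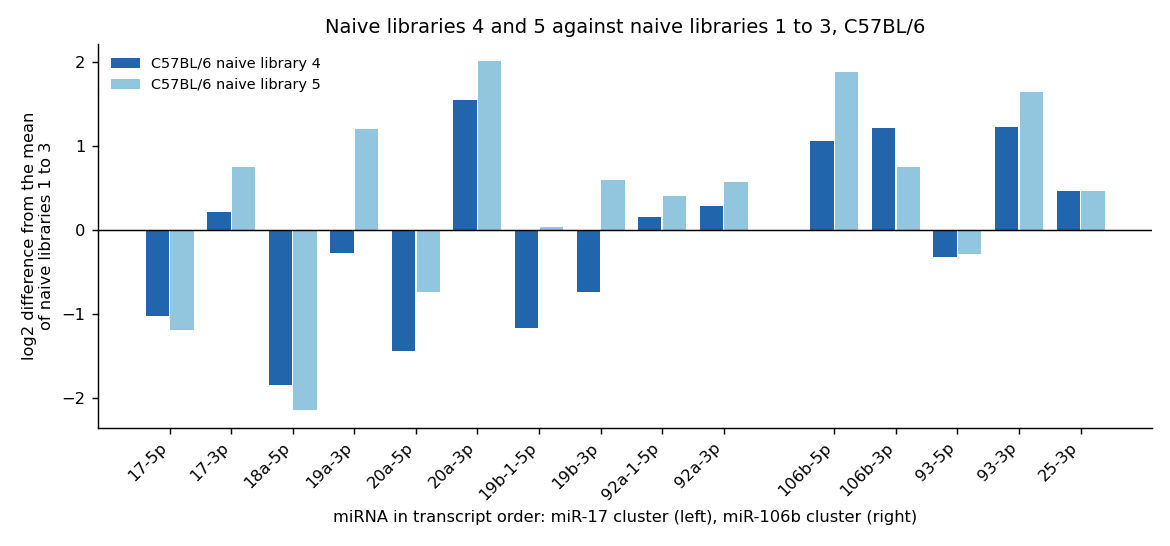
Log2 difference of each tested member in C57BL/6 naive library 4 (dark bars) and library 5 (light bars) from the mean of C57BL/6 naive libraries 1 to 3, with the miR-17 cluster left and the miR-106b cluster right. miR-18a-5p, miR-17-5p and miR-20a-5p lie below 0 and miR-106b-5p, miR-20a-3p and miR-93-3p above it in both libraries.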

How the data were processed

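Mature miRNAs were measured by small RNA sequencing of 14 DRG libraries, with RNA from the miRVana kit and libraries from the Ion Total RNA-Seq kit, per the labels' protocols. Bowtie2 is named in the submitters' processing notes, with no version. Neither a genome build nor a release of miRNA names nor the counting rules is given in the sources used here. The deposited signal values, 1 per miRNA and library, are called CPM by the authors but total 867581 to 1311857 per library. Divided by the step between low values, 100% of them came out whole in every library (tolerance 1e-06 reads), so whole reads were recovered. edgeR's TMM factors on those reads match the scaled totals to within 1.04e-05, so the deposited values are CPM on TMM library sizes. Recovery is least certain in C57BL/6 injured library 1. The 3-read floor covers counting error only, since the reads carry no molecular identifiers.

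Values were tested as log2(CPM + 1) with limma-trend (R 4.3.3, limma 3.58.1) in 1 model of 4 group means over all 14 libraries. A miRNA entered if 3 or more libraries had 5 CPM or more, which left 638, p-values are two-sided, and Benjamini-Hochberg adjustment ran over the 638 within each contrast, with a threshold of 0.05. On this scale the change of a low miRNA is understated. edgeR 4.0.16 (quasi-likelihood) and DESeq2 1.42.0 on the recovered reads were alternatives. The plan assumed plain CPM, and the same test was kept. The fit was also run on simulated data, with the same spread setting for every miRNA and no library that stands apart. That run cannot show how the fit deals with libraries that do.

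Members, lists and tests were chosen with earlier results of these data known. In each contrast the text names members past the threshold or else the 3 of lowest p when under 3 passed, and of the X-linked cluster the 4 most abundant tested arms. Any other was chosen after its values were seen. Marker lists hold general-knowledge miRNAs of neurons, myelinating glia, leukocytes, erythrocytes, endothelium and skeletal muscle. Replicate numbers come from the titles: in the naive strain comparison the 3 same-numbered pairs correlated at 0.104 to 0.114. Over all pairs of groups such pairs correlated at -0.194 to 0.555, and 10 of 18 were over 0.1. Sequences and positions are RefSeq on GRCm38.p6, and hosts are from GENCODE vM21.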

Additional observations from a re-analysis of the deposited data

Results flagged for a closer look

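In 36 groups of 5 libraries tested for a lone high or low value (tested members and X-linked arms, sums and ratios, all in C57BL/6 naive DRG), 2 values stood out, and chance flags about 1 in 20 such groups. miR-20b-3p, the minor arm of the X-linked miR-20b, was 56.2 CPM in C57BL/6 naive library 5, far above the other 4 naive libraries of that strain. The ratio of miR-20b-5p to miR-20a-5p was 0.456 in C57BL/6 naive library 4, against 0.157 to 0.217 in the other 4. Both libraries are those that stand apart in their other levels.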

How the results depend on the processing

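Each result was recomputed under 29 alternatives, and none of the 18 member differences named by the rule changed sign, while that of miR-25-3p between naive strains did in 2. Those 18 had the lowest p in their contrasts. Over all 15 tested members, the sign changed under at least 1 alternative for 4 after injury in C57BL/6 and 7 in CAST/Ei. It changed for 11 between naive strains and 3 between injured strains. It also changed for 8 in the difference between the injury effects and 5 in the averaged effect. Limma's count of 1 member in the naive strain comparison, miR-92a-3p, became 3 with DESeq2 and 0 with only the compared groups in the fit (adjusted p = 0.103) or with array weights (adjusted p = 0.0563). Leaving out each library in turn gave 0 to 1, with 0 without CAST/Ei naive library 3. The count of 0 for injury in C57BL/6 became 1 with DESeq2. The count of 0 for the averaged injury effect became 1, miR-18a-5p, with the replicate block (adjusted p = 0.0273), with array weights, without C57BL/6 naive libraries 4 and 5, and with the block without those libraries, an alternative chosen after seeing the data. In the block those 2 libraries drop out of the injury contrasts, since no other library has their numbers. Of the comparisons made, the naive strain comparison had all same-numbered pairs over 0.1, and the block changed no other count of members called. edgeR called 32 of all tested miRNAs for injury in C57BL/6, against 20 in limma, and 1 for the difference between the injury effects, against 0. Scaling each library to 1 common total moved the median of all tested miRNAs by 0.24 in CAST/Ei and 0.14 in C57BL/6 (injured minus naive, log2). The ratio of miR-106a-5p to miR-17-5p kept an averaged difference of -0.75 to -0.69 with any 1 library left out. Arms under 5 CPM are limited by depth.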

Other observations

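The skeletal muscle sum (miR-1a-3p, miR-133a-3p, miR-133b-3p and miR-206-3p), a list that bears on no member result above, was 6359 to 7393 CPM in CAST/Ei injured and 8788 to 11363 CPM in CAST/Ei naive libraries, which do not overlap. In C57BL/6 it was 8868 to 9575 CPM after injury and 5488 to 15996 CPM in naive libraries, which overlap. miR-1a-3p, most of the sum, had a C57BL/6 injury difference of -0.09. limma called miR-133a-3p (-1.03, adjusted p = 0.0288) and miR-206-3p (-1.58, adjusted p = 0.0215) lower, beside 3.13% of all tested miRNAs. Without naive libraries 4 and 5 they were -0.93 and -1.24, with adjusted p = 0.0401 and 0.0187. Both lay lower without overlap, as did miR-133b-3p (-0.94, adjusted p = 0.0840), beside 40 of all 638 tested miRNAs. miR-363-5p, an X-linked arm too low to be tested, was 1.46 to 2.73 CPM in CAST/Ei injured and 4.30 to 5.78 CPM in CAST/Ei naive libraries, and its other arm miR-363-3p was 17.2 to 19.5 and 23.0 to 33.7 CPM in the same libraries.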
